A study of Zingiber officinale with 6 samples.

Results

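The 100 most abundant transcripts of ginger leaf blade were described here. They are the 100 genes with the highest mean FPKM (fragments per unit of gene length and of library total) over the 3 Control plants, out of 55601 protein-coding genes in the deposited tables. Because the Control values chose the members, the high level in Control plants is no finding, and every difference from Control carries that choice. The leaf blades came from the uppermost leaves of ginger (Zingiber officinale), Laiwu variety, after 21 days in sealed pot-and-jar assemblies. In the 3 Po-VOCs plants, Pythium oligandrum GAQ1 grew on V8 agar in the jar below the pot, so that its volatile organic compounds (Po-VOCs) reached the roots through holes in the pot. The 3 Control plants stood over a jar that held no P. oligandrum, with V8 medium alone according to the growth protocol. One library was made from each plant, and its replicate number is used below as the name of the plant.

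In a green leaf, a small set of nuclear genes usually supplies a large part of the messenger RNA, among them genes for photosynthesis proteins, for protein synthesis and for protection from stress. Shares of counts sum to a whole in each library, so a higher share for some transcripts leaves a lower share for others. Ginger is diploid, and the Zo_v1.1 assembly sets its haplotypes out as A and B chromosomes, so that most genes have a counterpart that can be nearly identical. Reads shared by such counterparts could have been split or dropped in the counting, and the level of either copy is uncertain for that reason.

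No table used here gave a product name for any of the 100 members, so they are named by their RefSeq gene symbols and no role is given. The identity of the tissue could not be checked against marker genes for the same reason. The libraries held 13695463 to 14662442 counts in Po-VOCs plants and 14029032 to 14306349 in Control plants, and a member had 13 to 112246 counts in a library. No member lay on the plastid sequence, whose 65 genes took 0.00462%, 0.00631% and 0.0241% of counts in Po-VOCs plants 1, 2 and 3 and 0.00426%, 0.00903% and 0.00381% in Control plants 1, 2 and 3, in libraries made from mRNA. Po-VOCs plant 3 alone stood above the Control plants. The elongation factor gene that the study used as its internal reference, LOC121989190, ranked 145 in Control plants and so was not a member. Its level was 429, 308 and 478 FPKM in Po-VOCs plants and 507, 431 and 400.1 FPKM in Control plants, and these ranges overlapped.

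The mean level of a member ran over 6.12 to 8441 FPKM in Po-VOCs plants, with a median of 931, and over 597 to 6776 FPKM in Control plants, with a median of 942. That Control median was 149 times the median of 6.32 FPKM over the 36734 genes with a Control mean of at least 1. Levels above 1000 FPKM were reached by 45 members in Po-VOCs plants and by 42 in Control plants. At the lower edge of the choice, LOC122006873 and LOC122034553, at ranks 99 and 100, had Control means of 599 and 597 FPKM. Just outside it, LOC121976273 and LOC121972353 had Control means of 596 and 594 FPKM.

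**Figure D1:**
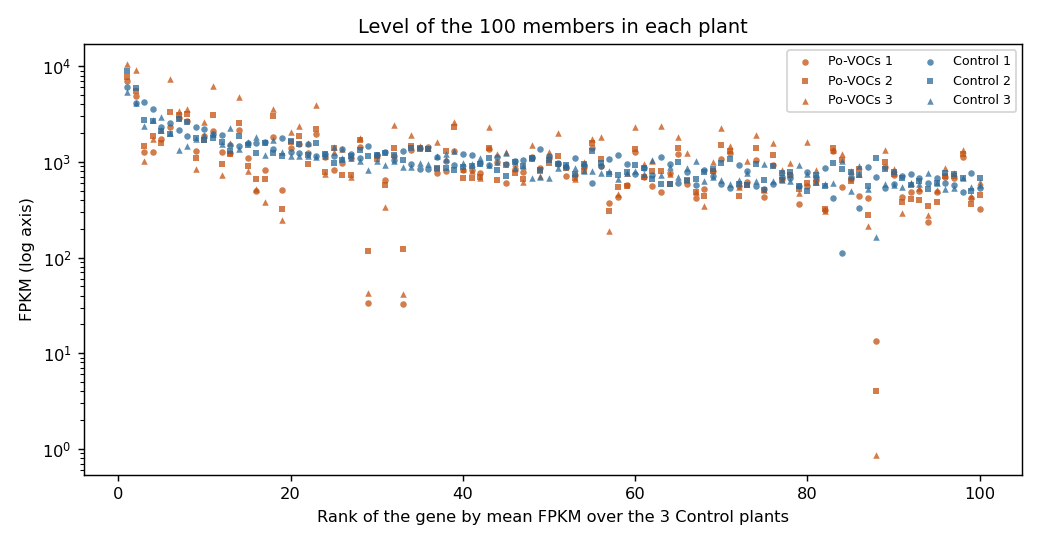
Level of each of the 100 members in each plant, as FPKM on a log axis, against the rank of the member by Control mean; orange points are Po-VOCs plants and blue points Control plants, with a shape for each replicate number. The points of both groups lie mostly on the same falling band, while 3 members have Po-VOCs points far below it, the lowest at 0.858 FPKM.

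The highest member was LOC122041341, on chromosome 2A at 82007547 to 82008441 of Zo_v1.1. Its level was 6973, 7682 and 10667 FPKM in Po-VOCs plants 1, 2 and 3, and 6055, 8909 and 5364 FPKM in Control plants 1, 2 and 3. The next was LOC122045836, on chromosome 2B at 70888995 to 70889893, with 4892, 5479 and 9143 FPKM in Po-VOCs plants and 4103, 5929 and 4092 FPKM in Control plants. For both genes Po-VOCs plant 3 was the highest of the 6 and Control plant 2 lay inside the range of the Po-VOCs plants, so the groups overlapped. The log2 fold changes of 0.33 (SE 0.33) and 0.49 (SE 0.36) had adjusted p = 0.619 and 0.490 by edgeR's quasi-likelihood test with Benjamini-Hochberg adjustment. LOC122041341 alone took 0.522%, 0.575% and 0.799% of all counts in Po-VOCs plants and 0.454%, 0.667% and 0.402% in Control plants, each within 0.00466 percentage points by the 95% Wilson interval.

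Among the members of rank 1 to 20, 5 were higher in every Po-VOCs plant than in every Control plant, 8 were lower in every Po-VOCs plant and 7 overlapped. Over the 41508 genes tested, 14.5% were higher and 12.4% lower in that sense, and since the Control values chose the members nothing is read from the comparison. These counts and shares compare FPKM, which scales by the library total alone. The log2 fold changes also carry TMM normalization factors, from 0.9143 in Po-VOCs plant 3 to 1.087 in Po-VOCs plant 1. Groups that lie close in FPKM could overlap on the TMM scale, and overlap was not computed on it. LOC121981182 and LOC121985059, at ranks 3 and 4 on chromosomes 5A and 5B, were among the lower ones. LOC121981182 had 1271, 1464 and 1010.4 FPKM in Po-VOCs plants and 4188, 2745 and 2352 FPKM in Control plants, and LOC121985059 had 1273, 1852 and 1725 FPKM against 3606, 2704 and 2757 FPKM. All Po-VOCs plants were below all Control plants in both, but the log2 fold changes of -1.33 (SE 0.30) and -0.90 (SE 0.27) did not pass edgeR's test (adjusted p = 0.0679 and 0.133). By DESeq2 both passed, with adjusted p = 0.000281 and 0.0175. LOC121985361, LOC121981484, LOC122000968 and LOC121974389, at ranks 9, 12, 15 and 17, had lower values in every Po-VOCs plant in the same way, with log2 fold changes of -0.87, -0.82, -0.76 and -1.26 and no call by edgeR. DESeq2 called all 4, with adjusted p = 0.00422, 0.00781, 0.000117 and 0.000464.

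The 5 higher ones by FPKM were LOC122002612, LOC122006855, LOC121974423, LOC122037838 and LOC122002675, at ranks 7, 8, 11, 14 and 18. LOC122002612 was a close case, at 2895 FPKM in Po-VOCs plant 1 and 2831 FPKM in Control plant 2. LOC122002675 had 1815, 3019 and 3536 FPKM in Po-VOCs plants and 1354, 1253 and 1699 FPKM in Control plants, a log2 fold change of 0.98 (SE 0.33, adjusted p = 0.163 by edgeR). LOC121974423 had 2084, 3068 and 6189 FPKM in Po-VOCs plants and 1977, 1799 and 1950.2 FPKM in Control plants, a log2 fold change of 1.03 (SE 0.45, adjusted p = 0.254 by edgeR). Here Po-VOCs plant 1 was close to the Control plants and Po-VOCs plant 3 far above them, while the Control plants lay close together. LOC122037838, the only member on unplaced sequence, had the same order of Po-VOCs plants, with 2167, 2558 and 4783 FPKM in Po-VOCs plants and 1469, 1882 and 1359.7 FPKM in Control plants. LOC121969306, at rank 6, also stood high in Po-VOCs plant 3, at 7304 FPKM beside 2312 and 3353 FPKM in Po-VOCs plants 1 and 2, but overlapped with the Control plants at 2552, 1980.4 and 1984 FPKM. None of these passed edgeR's test. By DESeq2 LOC122002675 passed, with adjusted p = 0.0434, and the others named in this paragraph so far did not, with adjusted p = 0.0660 to 0.327. The other members of these ranks, LOC122022609, LOC122022716, LOC122020038 and LOC122015654, overlapped between the groups as well.

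The members together took 10.1%, 10.6% and 13.3% of all counts in Po-VOCs plants 1, 2 and 3, and 12.2%, 12.03% and 11.0% in Control plants 1, 2 and 3. The mean was 11.3% ± 1.76 in Po-VOCs plants and 11.7% ± 0.637 in Control plants (SD, n = 3 each). Po-VOCs plants 1 and 2 lay below all Control plants and Po-VOCs plant 3 above them. The counting error of each share, at most 0.0178 percentage points by the 95% Wilson interval, was far smaller than these gaps between plants, although such an interval covers counting error only. Because the Control values chose the genes, this difference was not tested. The 10 highest members alone took 2.32%, 2.53% and 3.45% of counts in Po-VOCs plants and 2.61%, 2.77% and 2.17% in Control plants.

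A measure that treats the groups alike is the share taken by the 100 highest genes of each library itself, whichever they are. That share was 10.4%, 11.1% and 14.1% in Po-VOCs plants and 12.9%, 11.97% and 10.9% in Control plants. The means differed by -0.0896 percentage points (exact two-sided permutation test, p = 1.0, with 0.1 as the smallest p that 3 plants against 3 can give). The ranges overlapped. Across the whole pool, 50% of counts came from 3205, 3009 and 2221 genes in Po-VOCs plants and from 2438, 2707 and 2872 genes in Control plants, so Po-VOCs plant 3 had the most concentrated pool and Po-VOCs plant 1 the least.

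**Figure D2:**
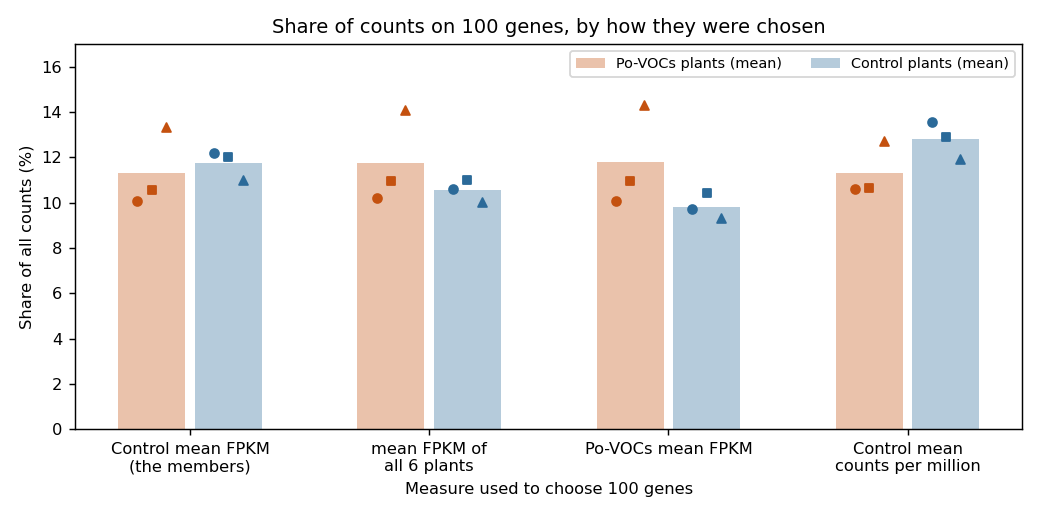
Percent of all counts on 100 genes in each plant, for 4 ways to choose the 100 genes along the horizontal axis; bars are group means, orange for Po-VOCs plants and blue for Control plants, and points are plants with a shape for each replicate number. Chosen by Control level, the means are 11.3% in Po-VOCs plants and 11.7% in Control plants, and chosen by Po-VOCs level they are 11.8% and 9.82%.

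The direction of the difference between the group means changed with the choice of genes, as the plot of shares by choice shows, while the plants of the groups overlapped under each choice. Of the 100 genes with the highest mean FPKM in Po-VOCs plants, 75 were members. That set took 11.8% of counts in Po-VOCs plants and 9.82% in Control plants on average. Chosen by the mean of all 6 plants, the 100 genes took 11.8% in Po-VOCs plants and 10.6% in Control plants. Chosen by the Control count scaled to the library total, which does not divide by length, they took 11.3% in Po-VOCs plants and 12.8% in Control plants.

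The choice was also tried inside the Control group. When the 100 genes were chosen on a pair of Control plants, 94, 92 and 94 of them were members, for Control plants 1, 2 and 3 left out. The Control plant left out then took 11.8%, 11.9% and 10.8% of counts on them, against 11.4%, 11.8% and 12.2% in the plants that chose them, so the left-out plant was lower only for Control plant 3. The median log2 ratio of the left-out plant to those plants was -0.03, -0.12 and -0.21. The median log2 ratio of Po-VOCs mean to the left-out Control plant was 0.01, -0.06 and -0.02, which is near 0 in each case. Ranks moved more for some members than for the set. In Po-VOCs plants 18 members ranked past 100 but within the first 200, and 7 ranked past 200, of which LOC122017521, LOC122000947 and LOC122005228 ranked 19367, 1500 and 1485. All 25 genes that took their places ranked 102 to 200 in Control plants, so none came from far down the Control order. The gene of these that ranked highest in Po-VOCs plants, LOC122021674, named after its values were seen, was at 537, 1186 and 2299 FPKM in Po-VOCs plants and 387, 279 and 623 FPKM in Control plants, and its ranges overlapped.

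The spread of the members between plants was set beside that of other genes. The median SD of log2(FPKM + 1) was 0.280 between Po-VOCs plants and 0.264 between Control plants. Over the 900 genes next in Control rank, down to rank 1000, it was 0.272 between Po-VOCs plants and 0.243 between Control plants. Over the 36634 genes outside the 100 with a Control mean of at least 1 FPKM, it was 0.269 between Po-VOCs plants and 0.204 between Control plants. The 1 added before the log lowers this SD in genes at low levels, so these values do not compare directly with those of the members. The median SD of FPKM as a percent of the mean was 19.5082% in members and 22.9952% in these genes between Po-VOCs plants. Between Control plants it was 17.9575% in members and 17.1197% in these genes. The Control values chose the members, so their Control spread is a description. The rule did not use the Po-VOCs values, but it favours short genes at high levels, so the Po-VOCs spread is a description too. Without Po-VOCs plant 3 the members' median SD between Po-VOCs plants was 0.167. Po-VOCs plant 3 was the highest of all 6 plants in 51 members, beside 1 for Po-VOCs plant 1 and 2 for Po-VOCs plant 2. Control plants 1, 2 and 3 were the highest in 30, 3 and 13 members.

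The smallest spread between Po-VOCs plants was that of LOC121975683 on chromosome 4B, with an SD of 0.0265 on the log2 scale. It had 1423, 1372 and 1398 FPKM in Po-VOCs plants and 838, 1378 and 945 FPKM in Control plants, so Control plant 2 was level with the Po-VOCs plants. LOC121987916 on chromosome 5B was next, with an SD of 0.0348 and 316, 325 and 309.6 FPKM in Po-VOCs plants, all below its 865, 555 and 589 FPKM in Control plants. LOC121976003 on chromosome 4B, with an SD of 0.0516, had 1288, 1382 and 1318 FPKM in Po-VOCs plants, all above its 420.2, 968 and 603 FPKM in Control plants. These 3 genes were chosen for nearly level Po-VOCs plants, so nothing is read from the wider spread of their Control plants.

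The largest spreads between Po-VOCs plants were those of LOC122017521, LOC121985449 and LOC122005228, with SDs of 1.48, 1.17 and 1.00 on the log2 scale. LOC121985449 on chromosome 5B had 487, 795 and 2387 FPKM in Po-VOCs plants and 1129, 581 and 721 FPKM in Control plants. Its groups overlapped, and its log2 fold change of 0.65 (SE 0.63) was -0.38 without Po-VOCs plant 3. Among members picked after their values were seen, LOC122048016 on chromosome 2B stood out for Control plant 1, at 112 FPKM beside 847 and 1030.0 FPKM in Control plants 2 and 3, and 553, 1051 and 1201 FPKM in Po-VOCs plants.

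Compared with Control plants, 6 members were lower in Po-VOCs plants and 0 were higher by edgeR's quasi-likelihood test at an adjusted p below 0.05. Over the 41508 genes tested, 1.15% were called higher and 1.08% lower. The members were selected on the Control values, which favours a fall, so no reading is drawn from their count beside these shares. At an unadjusted p below 0.05, 15 members were higher and 22 lower, beside 10.8% and 9.43% of all genes tested. DESeq2 called 9 members higher and 19 lower, all 6 of edgeR's among them, beside 4.38% and 4.28% of the 46916 genes with an adjusted p, and limma called 0 higher and 6 lower. The median log2 fold change of the members was -0.001, with 50 positive and 50 negative and 49 within 0.5 of 0, while the median over all genes tested was 0.01. In the 900 genes next in Control rank that median was -0.14. Without Po-VOCs plant 3 the median of the members was -0.28. In tissue samples such as these, fewer cells of a type and less RNA per cell cannot be told apart.

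All 6 members called lower changed by more than 1 on the log2 scale. LOC122017521, on chromosome 8B at 9911593 to 9912829, had 13.5, 4.05 and 0.858 FPKM in Po-VOCs plants and 688, 1101 and 165 FPKM in Control plants. These are 199, 64 and 13 counts in Po-VOCs plants and 10410, 17003 and 2510 counts in Control plants. Control plant 3 had the lowest Control value, yet the groups stood far apart. The log2 fold change was -6.82 (SE 1.14, adjusted p = 0.0346).

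LOC122000947, on chromosome 7A at 9142075 to 9145881, had 33.5, 118 and 42.8 FPKM in Po-VOCs plants and 1455, 1148 and 819 FPKM in Control plants. LOC122005228, on chromosome 7B at 7307002 to 7310805, had 32.5, 122 and 41.2 FPKM in Po-VOCs plants and 1299.8, 1040.5 and 888 FPKM in Control plants. In both, Po-VOCs plant 2 was the highest of its group and Control plant 1 the highest of all, with no overlap. Their log2 fold changes were -4.15 (SE 0.57, adjusted p = 0.0254) and -4.06 (SE 0.57, adjusted p = 0.0278) by edgeR.

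LOC121985025, on chromosome 5B at 92968340 to 92970086, had 513, 320.0 and 249 FPKM in Po-VOCs plants and 1769, 1154 and 1259 FPKM in Control plants. LOC121981137, on chromosome 5A at 97472118 to 97474014, had 375, 304 and 189 FPKM in Po-VOCs plants and 1076, 739.5 and 803 FPKM in Control plants. LOC122020453, on chromosome 9A at 347005 to 348375, had 498, 669 and 518 FPKM in Po-VOCs plants and 1573, 1234 and 1833 FPKM in Control plants. No Po-VOCs plant reached the lowest Control plant in any of these, and their Po-VOCs levels of 189 FPKM or more stayed well above those of the first 3. The log2 fold changes were -1.99 (SE 0.31), -1.63 (SE 0.29) and -1.46 (SE 0.25), with adjusted p = 0.0313, 0.0395 and 0.0370 by edgeR.

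**Figure D3:**
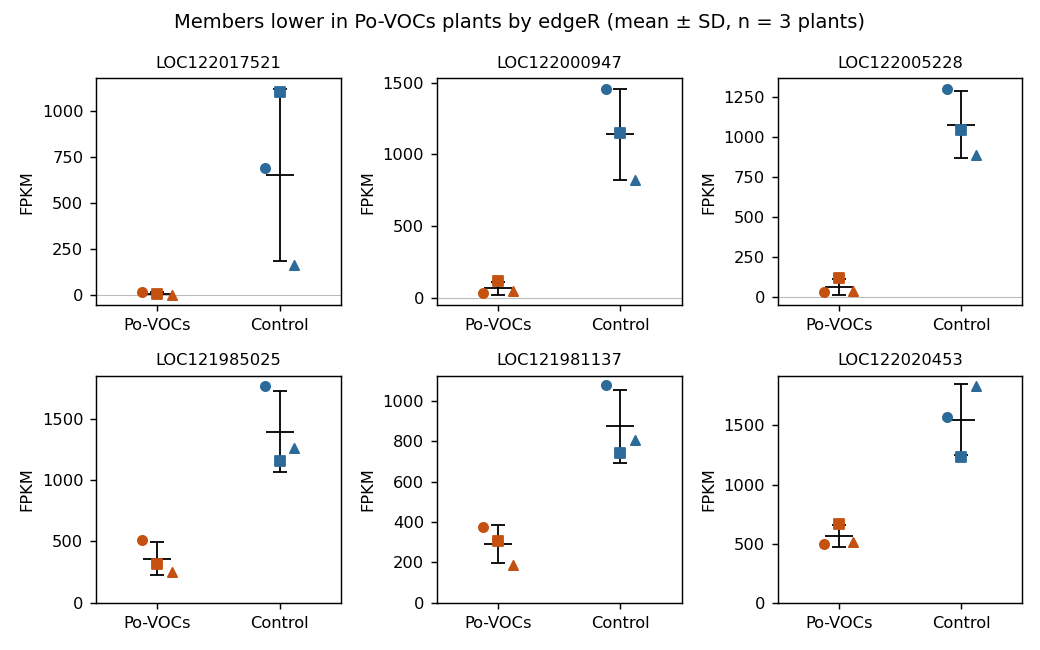
FPKM of the 6 members called lower in Po-VOCs plants by edgeR, with a panel for each gene; points are plants (orange Po-VOCs, blue Control), with a shape for each replicate number, and bars are mean ± SD of 3 plants. In every panel all Po-VOCs points lie below all Control points, and the Po-VOCs points of LOC122017521, LOC122000947 and LOC122005228 lie near 0.

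By DESeq2, the test that the study used, the 6 members called lower by edgeR had adjusted p = 3.3e-15 to 1.2e-06. DESeq2 was not refitted with a plant left out. EdgeR's adjusted p lay close to its threshold in all 6, although the plot of the called members shows no overlap, and edgeR's calls depended on which plants were fitted. Without Po-VOCs plant 3, without Control plant 1 or without Control plant 2, 0 members were called lower, and without Po-VOCs plant 2 it was 2. Without Po-VOCs plant 1 it was 5 and without Control plant 3 it was 4. The share called over all genes in these smaller fits is not given here. Whether calls were lost in general or in the members above all was therefore not tested. Over the fits that left out a plant, LOC122017521 had adjusted p = 0.0271 to 0.147 and LOC122020453 had adjusted p = 0.0619 to 0.120 by edgeR, while their log2 fold changes ran from -8.03 to -6.21 and from -1.60 to -1.34.

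On the higher side, the largest log2 fold change was 1.16 (SE 0.38), in LOC122027554 on chromosome 10A, a gene named after its values were seen. It had 1073, 1509 and 2253 FPKM in Po-VOCs plants and 589, 978 and 645 FPKM in Control plants, with adjusted p = 0.151 by edgeR and 0.0291 by DESeq2. The smallest adjusted p among members with a positive change was that of LOC121980837 on chromosome 5A, likewise named after its values were seen. It had 1116, 1224 and 1327 FPKM in Po-VOCs plants and 487, 677 and 679 FPKM in Control plants, a log2 fold change of 1.00 (SE 0.24, adjusted p = 0.0800 by edgeR and 0.000706 by DESeq2). All Po-VOCs plants were above all Control plants in both genes, and Control plant 1 was the lowest of the 6.

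Without regard to a test of size, 19 members were higher in every Po-VOCs plant than in every Control plant and 34 were lower in every Po-VOCs plant. These counts, taken on FPKM and not on the TMM scale, stand beside the 14.5% and 12.4% of all genes tested given above. Among the 900 genes next in Control rank, 110 were higher and 243 lower in the same sense. The log2 fold changes ran over 0.51 to 1.16 in the 19 members and over -6.82 to -0.39 in the 34. The 19 members took 2.36%, 2.82% and 3.73% of counts in Po-VOCs plants and 1.52%, 2.06% and 1.48% in Control plants. Po-VOCs plant 3 was the highest of the 6 plants in 18 of the 19, and Control plant 2 the highest Control plant in 16 of them. The 34 members took 2.98%, 2.64% and 2.40% of counts in Po-VOCs plants and 5.75%, 4.78% and 4.69% in Control plants.

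The members came from short genes. Their counted length, the length by which the deposited FPKM divides, had a median of 901 bases and ran from 484 to 3515. The median was 1142 bases over the 900 genes next in Control rank and 1632 bases over the remaining genes with a Control mean of at least 1 FPKM. The span on the chromosome was 1.25 times the counted length in the median member, against 1.70 and 2.56 times in those sets, and a single transcript was annotated for 92% of members, against 82.8% and 62.9%. Length is a divisor in FPKM, so a choice by FPKM weighs toward short genes at a given count.

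The change in Po-VOCs plants went with that length among the members. Spearman's rho between log2 fold change and counted length was -0.47 over the 100 members, -0.31 over the 900 genes next in Control rank and -0.15 over all 41508 genes tested. The Po-VOCs plants differed in this. The log2 deviation of Po-VOCs plants 1, 2 and 3 from the mean of all 6 had rho of -0.07, -0.42 and -0.52 with length over the members. It was -0.01, -0.08 and -0.46 over the 900 genes, and 0.12, 0.09 and -0.38 over all genes tested, where Po-VOCs plant 3 alone was negative. These are descriptions across genes that share the same 6 libraries. The 42 members under 800 bases had a median log2 fold change of 0.35, with 28 positive and 14 negative. Those of 800 to 1200 bases, 23 in all, had a median of 0.07, and the 35 of 1200 bases or more had a median of -0.44, with 8 positive and 27 negative. Of these 35, 1 was higher in every Po-VOCs plant, namely LOC121980837 with 1784 bases, and 22 were lower in every Po-VOCs plant. Over all genes tested, of any length, 14.5% were higher and 12.4% lower, and these shares were not computed for genes of this length alone. In genes of 1200 bases or more the median log2 fold change was -0.27 over the 900 next in Control rank and -0.03 over all genes tested. In those under 800 bases it was 0.16 and 0.23.

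Length also went with differences between plants of the same group. Over the members, the log2 deviation of a plant from its group mean had rho of 0.41, 0.13 and -0.49 with counted length in Po-VOCs plants 1, 2 and 3, and 0.21, -0.13 and 0.01 in Control plants 1, 2 and 3. In Po-VOCs plants it was 0.32, 0.27 and -0.42 over the 900 genes next in Control rank. Over all genes tested it was 0.26, 0.27 and -0.42 there, so this pattern was not particular to the members. Members under 800 bases took 3.65%, 4.25% and 6.23% of counts in Po-VOCs plants and 3.74%, 3.99% and 3.35% in Control plants. Members of 1200 bases or more took 4.04%, 3.61% and 3.79% in Po-VOCs plants and 5.96%, 5.29% and 5.08% in Control plants, so their ranges did not overlap, while those of the short members did. Without Po-VOCs plant 3 the rho between change and length over the members was -0.41. The part of length in the calls was not tested.

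**Figure D4:**
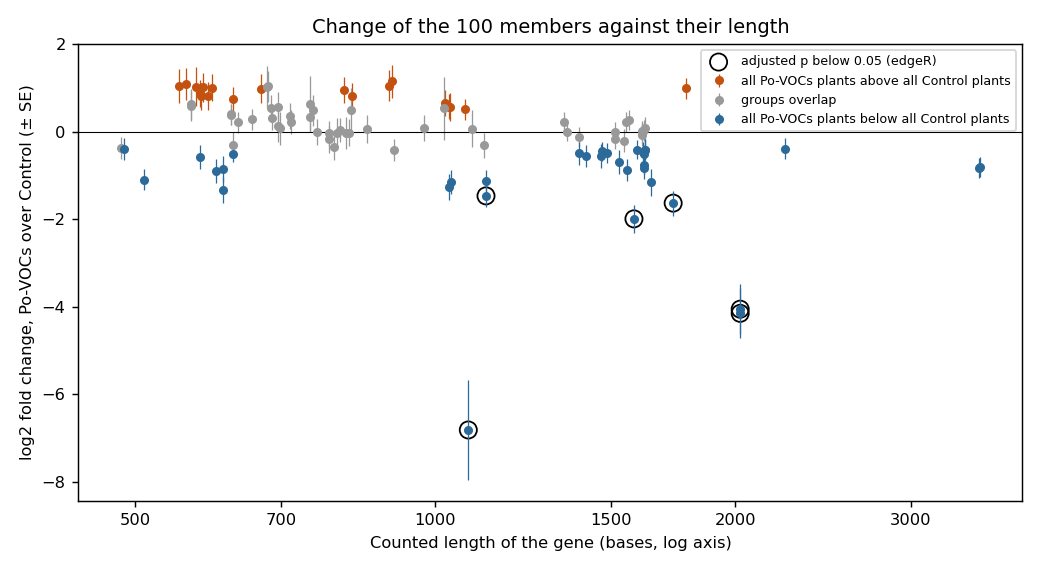
Log2 fold change of each of the 100 members (Po-VOCs over Control, edgeR, ± SE) against its counted length in bases on a log axis; orange members are higher in every Po-VOCs plant, blue members lower in every Po-VOCs plant, grey members overlap, and circles mark the 6 with an adjusted p below 0.05. Most orange points lie at the short end and most blue points at the long end, with rho of -0.47 over the members.

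Of the 100 members, 54 lay on B chromosomes and 45 on A chromosomes. Chromosomes 5B and 5A held the most, with 12 and 10 members, or 4.57 and 3.92 per 1000 genes, and 8B held 10. Chromosomes 6B and 11A held none. Within 100000 bases of each other lay 4 pairs of members. In one of them, on chromosome 8B, LOC122017521 and LOC122015654 were 59312 bases apart. LOC122015654 had 1389, 1621 and 2030.4 FPKM in Po-VOCs plants and 1264, 1649 and 1152 FPKM in Control plants, with overlap, beside the low Po-VOCs values of its neighbour given above.

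To set counterparts side by side, genes were aligned in order along the A and B chromosomes by their counted length and span. No sequence was compared, so a pair need not be true counterparts. Of the 99 placed members, 66 had an aligned gene, and 46 of them formed 23 pairs of members. The Control means of a pair differed by a median of 1.16-fold (1.00 to 2.46), and 21 of the 23 pairs lay within 1.5-fold. Both genes of such a pair were chosen for a high Control mean, which favours close Control means, so nothing is read from that closeness. Their log2 fold changes differed by a median of 0.10 and at most by 0.43, between LOC121981182 and LOC121985059, and 22 of the 23 had the same sign. These values were not computed over the 10180 aligned pairs among all genes, so nothing particular to the members is read from them. The part of reads shared between counterparts in the closeness of these changes was not tested.

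**Figure D5:**
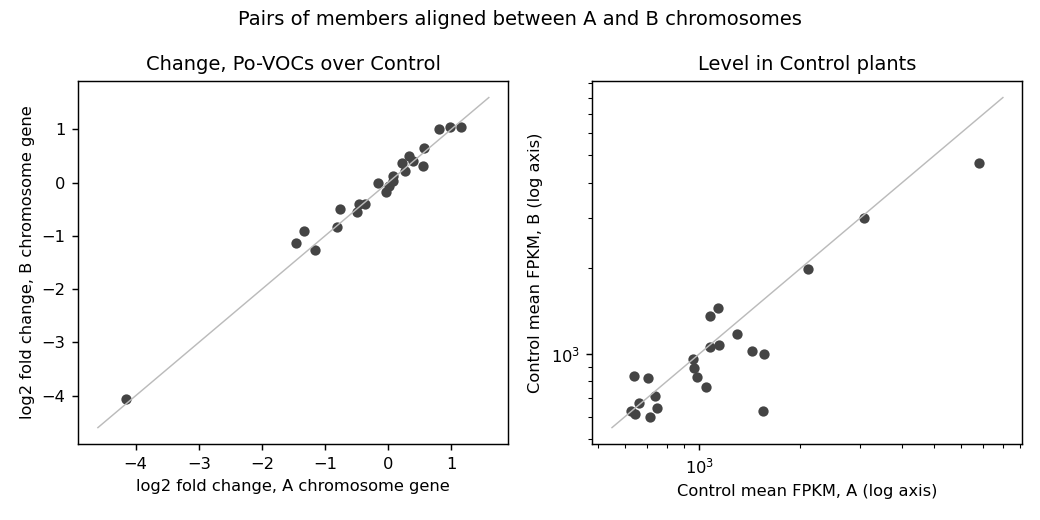
The 23 pairs of members aligned between A and B chromosomes, with the B gene on the vertical and the A gene on the horizontal axis; the left panel gives the log2 fold change (Po-VOCs over Control) and the right panel the Control mean FPKM on log axes, and the grey line marks equal values. Changes of a pair lie within 0.43 of each other, while Control means differ by up to 2.46-fold, among genes that were all chosen for a high Control mean.

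Among the 23 pairs of members, the one that fell most was LOC122000947 and LOC122005228, which have the same counted length of 2022 bases and Control means of 1141 and 1076 FPKM. LOC122020453 was aligned with LOC122023598 on chromosome 9B, also a member, at 237, 346 and 279 FPKM in Po-VOCs plants and 608, 518 and 764 FPKM in Control plants. That partner was lower in every Po-VOCs plant as well, with a log2 fold change of -1.13 (SE 0.25) that missed the threshold (adjusted p = 0.0686 by edgeR). LOC122017521 was aligned with LOC122012472 on chromosome 8A, which ranked 295 in Control plants. That gene had 8.22, 2.83 and 1.25 FPKM in Po-VOCs plants and 274, 373 and 48.6 FPKM in Control plants, a log2 fold change of -5.90 (adjusted p = 0.0339 by edgeR). In both genes of this pair Control plant 3 was the lowest Control plant and Po-VOCs plant 3 the lowest of all.

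The other 20 aligned members were set beside a gene outside the 100, of which 14 were within the first 200 in Control rank. In 5 cases the aligned gene ranked past 1000. LOC121974423 on chromosome 4B, for example, was set beside LOC121969307 on 4A, whose Control mean was 1.63 FPKM. The member LOC121969306, at 3453255 to 3454186, lies next to that gene on 4A and also had its highest value in Po-VOCs plant 3, so the alignment by order and length is uncertain there.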

How the data were processed

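Leaf blades of 3 Po-VOCs plants and 3 Control plants were analysed, with 1 library per plant and groups taken from the sample labels. According to the methods, the authors made stranded mRNA libraries, trimmed paired-end reads with Trimmomatic, mapped them with HISAT2 to Zo_v1.1 and counted genes with HTSeq-count. The counts were deposited without normalization. The FPKM values deposited by the authors, attributed to Cufflinks, all equalled count/(length × total count) within 0.1%, so both tables carry the same measurement. Tool versions, and how HTSeq-count treated strand and shared reads, were not given in the sources used here.

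Totals of 13695463 to 14662442 counts per library set the precision. Counts were tested in R 4.3.3 with edgeR 4.0.16 (filterByExpr with minimum count 10, TMM, quasi-likelihood test, Benjamini-Hochberg over 41508 genes). DESeq2 1.42.0 and limma 3.58.1 served as alternatives, beside other normalizations, no filter, other choices of the 100 genes, the replicate number as a block and each library left out. The SE of a log2 fold change was derived from edgeR's F statistic. The code was tested on simulated data. All 55601 genes were matched to RefSeq's Zo_v1.1 gene table, the source of symbols and positions.

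The members, the lists and the tests were chosen with earlier results of these data known. Genes named were the members of Control rank 1 to 20, those called with the largest change, the 3 with the largest and the 3 with the smallest SD of log2(FPKM + 1) between Po-VOCs plants, those at the edge of the choice, the reference gene and aligned partners. Other named genes are given as chosen after their values were seen, and so were the alignment of A and B chromosomes and the relation to length. Product groups, protein identity and promoter motifs had been planned and were not analysed here, for want of product names and sequences in the reference used.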

Additional observations from a re-analysis of the deposited data

How the results depend on the processing

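The 6 lower and 0 higher members were the counts with edgeR under RLE size factors, no composition factor, TMM without the members and no filter, and with limma at a pseudocount of 1 or 0.1. DESeq2 gave 9 higher and 19 lower. Without each plant in turn, 0 to 5 were lower. For settings other than the main fit and DESeq2, the share called over all genes is not given here, so these counts are descriptions. Chosen by Po-VOCs mean or by the mean of all 6 plants, the 100 genes held 0 and 2 lower. The sources used here do not say whether plants of the same replicate number shared an origin. Over 41850 genes, the deviations of same-numbered plants from their group means correlated at -0.02, 0.01 and -0.11. No plant correlated best with its own number. With 3 plants in a group such correlations cannot exclude a shared origin, so none is drawn. With the number as a replicate block, 1 member was lower and 0 were higher.

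The median log2 fold change of the members ran from -0.28 to 0.16 without each plant in turn, and was 0.50, 0.28 and -0.27 for genes chosen by Po-VOCs mean, by the mean of all 6 and by library-scaled counts. The members held 17.2% of summed FPKM in Po-VOCs plants and 16.9% in Control plants. With 50 genes the share of counts was 7.08% in Po-VOCs plants and 7.44% in Control plants, and with 200 genes 16.7% and 16.8%. In Control plants it was 9.82%, 10.6% and 12.8% for genes chosen by Po-VOCs mean, by the mean of all 6 and by library-scaled counts. The median SD between Po-VOCs plants was 0.358 on log2 TMM-scaled counts, and 0.167 to 0.297 without each Po-VOCs plant in turn.

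The difference in the share of each library's own highest genes changed sign, at 0.543, 0.0112 and 0.134 percentage points for 10, 50 and 200 genes and -1.20 to 0.636 without each plant in turn. For the 30 named members, 6 of them called, 30 of the 84 comparisons of called members lost the call, 9 comparisons of the others gained it, and no call changed sign. The rho with length stayed between -0.62 and -0.41, and pairs of members numbered 28 and 29 at tolerances of 5% and 10% in counted length. Alternatives that needed proteins or promoters were not run. Where values changed, the cause was not tested beyond the fewer plants or other genes that a setting brings. Counting error was small beside the spread between plants for the members' summed share. It was not computed for each member, and LOC122017521 had as few as 13 counts.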
